A study of Mus musculus with 5 samples.

Results

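The 10 genes described here are the transcription factor gene Nfe2l2, which encodes NRF2, 7 genes of its antioxidant program (Hmox1, Nqo1, Gclc, Gclm, Txnrd1, Srxn1 and Osgin1) and the ferritin chain genes Ftl1 and Fth1. They were picked by symbol from the 45777 genes of a mouse gene expression table, all 10 symbols were found, and all 10 passed the filter on low counts. The cells were MG5, a mouse microglial line kept partly in medium taken from A1 cells, an astrocyte-like mouse line. They were left untreated, or received either bexarotene (BEX) or 6OHA at 10 µM for 6 h. Bexarotene is an agonist drug of the retinoid X receptor (RXR), and 6OHA is the code name of another RXR agonist whose effects the study set beside those of bexarotene.

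NRF2 is held in the cytoplasm by KEAP1, which delivers it for degradation, and oxidants or electrophiles that modify KEAP1 let it enter the nucleus. There it pairs with small MAF proteins at antioxidant response elements and drives genes of glutathione synthesis, thioredoxin recycling, quinone reduction, haem breakdown and iron storage, while BACH1 and BACH2 occupy the same type of element as repressors. NRF2 activity is set largely through the stability of the protein, which RNA levels do not show. Ferritin stores iron in a shell of heavy and light chains, and its translation is held back by iron regulatory proteins bound to an iron-responsive element in the mRNA. Microglia take up iron and haem and hold much ferritin.

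RNA with poly-A tails was sequenced in 5 libraries: untreated replicate 3, BEX replicates 1, 2 and 3, and 6OHA replicate 2. The untreated and 6OHA groups thus had 1 library each. Spread between replicates was seen only in the 3 BEX libraries, and the lone libraries were assumed to vary like them. The SE, interval and p of each edgeR test also draw on the spread shared across all tested genes. They can therefore be narrower than the BEX libraries of that gene alone would give. Whether the replicates came from separate cultures was not stated, and the p-values measure the spread between these samples only. The vehicle and the time in culture of the untreated cells are not stated in the labels, so their effect cannot be told apart from that of the agonists. Both comparisons with untreated cells share that 1 untreated library. Libraries held 33823181 to 40545305 counts. Counts of the untreated library differed from those of each treated library by a chi-square of 38.1 to 43.5 per gene, against 4.63 to 6.04 between BEX libraries and 16.3 to 19.8 between BEX and 6OHA. All 10 microglia and macrophage markers were above 1 CPM (counts scaled for library size with TMM factors) in every library and summed to 8539 to 9112 CPM. Astrocyte markers summed to 15.8 to 24.0 CPM, highest in the untreated library, with 1 of 7 at 0 throughout. Neuronal markers summed to 8.73 to 13.5 CPM with 2 of 6 at 0, oligodendrocyte markers to 86.5 to 104 CPM with 2 of 5 at 0, and fibroblast and endothelial markers to 9.35 to 11.3 CPM with 2 of 6 at 0. The part of these cells in the results below was not tested.

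Promoter windows of 250 bases before to 50 bases after a transcript start were at hand from RefSeq (GRCm38.p6) for 8 of the 10 genes, in 11 windows. Hmox1 and Gclc had no window. They were searched on both strands for TGACNNNGC, the core of the antioxidant response element, and for TGANTCA, the related element of AP-1. The first motif was present in 4 of the 11 windows (Gclm, Nfe2l2, Srxn1 and 1 of those of Txnrd1) and in 12.4% of all 32851 windows of this length. The second was present in 2 of the 11 (Osgin1 and Srxn1) and in 7.81% of all windows. The matches to the 2 motifs did not overlap in these genes. Such a match describes letters and is not a measured binding site. Osgin1, Srxn1 and Gclm are shown because they were called with BEX and had a match, with the matched letters in capitals. The windows of Nqo1, Ftl1 and Fth1, which were also called lower with BEX, held no match to these motifs and are not shown. The window of Osgin1 is chr8:119436897-119437196 (plus strand), with TGACTCA at -97 from the start.
Osgin1: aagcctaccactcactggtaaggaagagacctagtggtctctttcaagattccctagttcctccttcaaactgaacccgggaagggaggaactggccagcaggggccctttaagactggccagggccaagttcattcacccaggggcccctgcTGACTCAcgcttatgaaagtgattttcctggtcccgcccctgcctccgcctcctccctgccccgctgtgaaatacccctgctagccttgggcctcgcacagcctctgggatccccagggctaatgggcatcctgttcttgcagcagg
The Srxn1 window is chr2:152105274-152105573 (plus strand), with TGAGTCA at -102 and -45 and an antioxidant element core, read on the minus strand, at 29.
Srxn1: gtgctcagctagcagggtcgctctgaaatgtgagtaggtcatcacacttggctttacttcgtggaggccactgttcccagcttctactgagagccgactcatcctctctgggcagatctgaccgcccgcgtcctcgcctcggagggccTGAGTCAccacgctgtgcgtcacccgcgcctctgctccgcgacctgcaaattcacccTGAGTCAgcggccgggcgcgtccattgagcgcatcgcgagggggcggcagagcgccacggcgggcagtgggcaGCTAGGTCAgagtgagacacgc
The Gclm window is chr3:122245307-122245606 (plus strand), with an antioxidant element core on the minus strand at -134.
Gclm: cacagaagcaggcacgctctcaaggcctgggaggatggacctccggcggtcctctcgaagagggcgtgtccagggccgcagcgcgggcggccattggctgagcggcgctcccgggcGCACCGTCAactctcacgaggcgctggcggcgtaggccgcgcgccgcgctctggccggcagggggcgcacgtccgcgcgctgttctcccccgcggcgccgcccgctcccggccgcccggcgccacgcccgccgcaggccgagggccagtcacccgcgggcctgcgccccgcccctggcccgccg

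With BEX, Osgin1 was the single gene of the 10 that rose, to 2.21 times its untreated level, while both ferritin chains, Gclm, Srxn1 and Nqo1 fell by 13.3% to 25.7%. Nfe2l2, Hmox1, Gclc and Txnrd1 were not called. Calls rest on the edgeR quasi-likelihood test, with p adjusted by Benjamini and Hochberg's method across all 15462 tested genes and a threshold of 0.05. The 6 called members of 10 stand beside 13.6% of all tested genes (7.55% higher and 6.03% lower), and the median log2 fold change was -0.15 over the 10 genes and -0.0014 over all tested genes. With 6OHA, Osgin1 also rose, and Ftl1, Fth1 and Gclm fell, 4 of 10 called beside 14.8% of all genes (7.59% higher and 7.19% lower), with a median of -0.11 against -0.0031. Between the agonists, Osgin1 and Ftl1 were lower with 6OHA and the other 8 were not called, beside 6.53% of all genes (2.40% higher and 4.13% lower), with medians of -0.0036 and -0.0040. DESeq2 called 4, 4 and 2 of the 10 in the same order of comparisons, beside 9.54%, 10.7% and 4.98% of all genes, and edgeR with offsets for GC content and length called 5, 5 and 3, beside 12.0%, 9.11% and 4.67%. Without the low-count filter 2, 2 and 1 were called, beside 5.57%, 5.2% and 0.871%. Limma on log2(TPM + 1) called 1, 1 and 0, beside 5.87%, 5.08% and 0.55%, and on log2(TPM + 0.1) it called 1, 2 and 0, beside 6.31%, 5.62% and 0.931%. Where limma called 0, 4 of the 10 had an unadjusted p under 0.05.

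**Figure D1:**
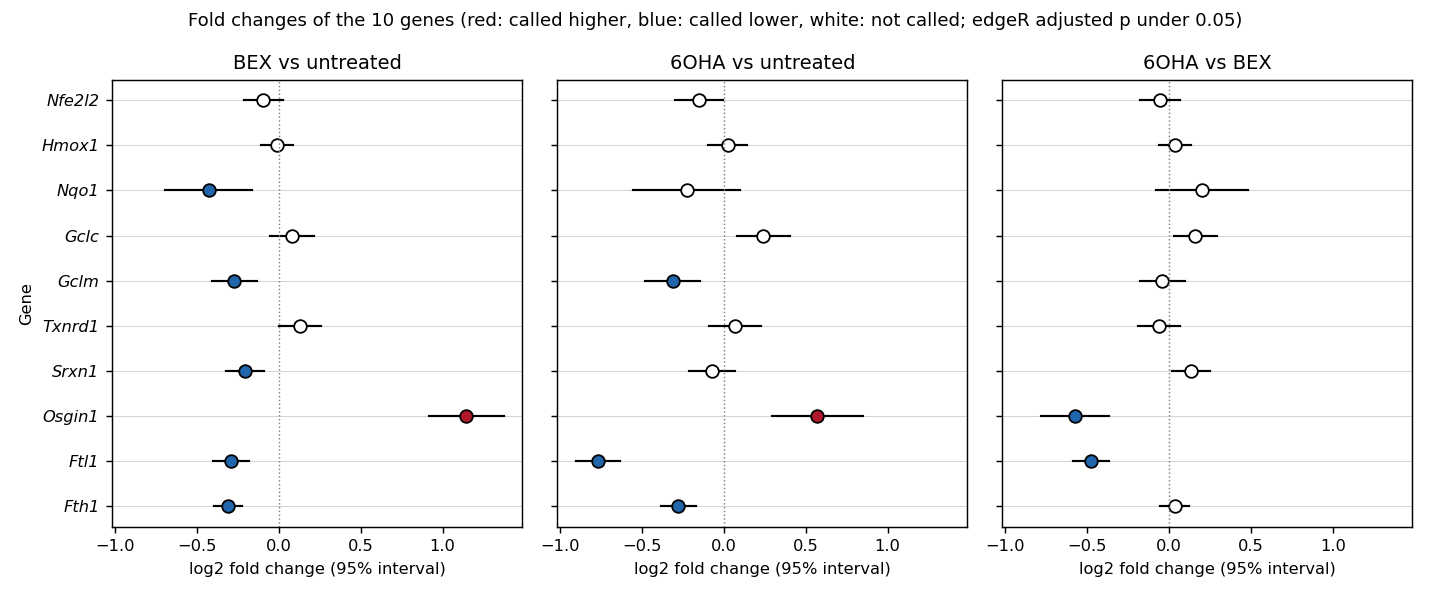
Log2 fold change (x axis) of each of the 10 genes (rows) in the 3 comparisons, with points for the edgeR estimates and lines for 95% intervals. Osgin1 lies to the right in both comparisons with untreated cells and to the left between 6OHA and BEX, and the Ftl1 estimate moves from -0.29 with BEX to -0.77 with 6OHA.

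Nfe2l2, the gene of NRF2 itself (chromosome 2, 75675513 to 75704663, minus strand, RefSeq GRCm38.p6), stood at 158 CPM in the untreated library, 144, 145 and 155 CPM in BEX 1, 2 and 3, and 142 CPM in the 6OHA library. The untreated library was the highest and the 6OHA library the lowest, both just outside the BEX values. The log2 fold change was -0.10 ± 0.055 (SE, 95% interval -0.22 to 0.024, edgeR adjusted p = 0.297) with BEX and -0.15 ± 0.068 (adjusted p = 0.164) with 6OHA. With offsets for GC content and length, the 6OHA value was -0.23 (adjusted p = 0.0494) and was called.

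Hmox1, which encodes the inducible haem oxygenase (chromosome 8, 75093618 to 75100593, plus strand), varied least over the 5 libraries among the 10. Its levels were 273 CPM untreated, 268, 268 and 277 CPM with BEX, and 278 CPM with 6OHA. The untreated value lay inside the BEX range, and all 5 libraries fell within a narrow band. The 95% intervals of the log2 fold change were -0.11 to 0.085 with BEX and -0.095 to 0.14 with 6OHA, so changes beyond those bounds lie outside the intervals.

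Glutathione synthesis starts with glutamate-cysteine ligase, whose catalytic subunit is encoded by Gclc (chromosome 9, 77754535 to 77794489, plus strand) and whose modifier subunit is encoded by Gclm (chromosome 3, 122245487 to 122267215, plus strand). Gclm stood at 135 CPM untreated, 109, 108 and 119 CPM with BEX, and 109 CPM with 6OHA. Every treated library was below the untreated one, and the 6OHA value fell inside the BEX range. Gclm fell by 0.27 log2 units with BEX (SE 0.062, edgeR adjusted p = 0.0106) and by 0.31 with 6OHA (SE 0.077, adjusted p = 0.0170). Neither call held without the low-count filter (adjusted p = 0.0753 and 0.0879) or with limma on log2(TPM + 1) (0.0919 and 0.108). Gclc stood at 74.1 CPM untreated, 78.1, 81.4 and 75.7 CPM with BEX, and 87.6 CPM with 6OHA. Here the untreated library was the lowest and the 6OHA library the highest. The log2 fold change of Gclc was 0.24 ± 0.076 (SE) with 6OHA, just outside the threshold (adjusted p = 0.0506, and called in 5 of 13 alternative analyses), and 0.08 ± 0.062 with BEX (adjusted p = 0.463). The ratio of Gclm to Gclc in TPM (transcript abundance corrected for gene length) was 3.02 untreated, 2.37 ± 0.216 (SD, n = 3) with BEX and 2.06 with 6OHA. The modifier subunit thus had more RNA per length than the catalytic subunit in all 5 libraries, by the largest factor in the untreated one; this ratio was not tested. Gclm overlaps the pseudogene Gm6061 over 735 bases on the same strand, and reads there could be assigned to either gene. The noncoding RNA gene Gm46822 overlaps Gclm over 20 bases and held a mean of 0.6 counts per library. Gm6061 had 25.8 CPM untreated, 20.8, 21.5 and 19.5 CPM with BEX, and 25.3 CPM with 6OHA. It was called lower with BEX (log2 fold change -0.33 ± 0.090, SE), a call kept in 8 of 14 alternative analyses. With 6OHA it was not called (-0.03 ± 0.109), where Gclm was.

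Txnrd1 encodes cytosolic thioredoxin reductase (chromosome 10, 82833951 to 82897724, plus strand). It stood at 133 CPM untreated, 152.5, 138 and 146 CPM with BEX, and 139.5 CPM with 6OHA. All treated libraries were above the untreated one, and 6OHA lay within the BEX range. The log2 fold change was 0.13 ± 0.060 with BEX (SE, edgeR adjusted p = 0.196) and 0.07 ± 0.074 with 6OHA (adjusted p = 0.616). Without BEX replicate 2, the lowest of the BEX libraries, the BEX value was 0.16 and was called (adjusted p = 0.0297). The long noncoding RNA gene Gm38560 overlaps Txnrd1 over 13794 bases on the opposite strand, and the coding gene Eid3 overlaps Txnrd1 over 1305 bases on the same strand. They held far fewer counts than Txnrd1, a mean of 85.6 and 12.8 per library.

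Srxn1 encodes sulfiredoxin, which reactivates over-oxidised peroxiredoxins (chromosome 2, 152105524 to 152111376, plus strand). Its levels were 125 CPM untreated, 105, 108 and 110.4 CPM with BEX, and 118 CPM with 6OHA. The BEX libraries were the lowest and the 6OHA library lay between them and the untreated one. Srxn1 fell by 0.21 log2 units with BEX (SE 0.054, edgeR adjusted p = 0.0218), and its log2 fold change with 6OHA was -0.07 ± 0.066 (adjusted p = 0.531). Offsets for GC content and length moved the BEX value to -0.08 (adjusted p = 0.406), and leaving out BEX replicate 1 (adjusted p = 0.0718) or the low-count filter (0.0747) also ended the call. With the same offsets the 6OHA value against untreated cells changed sign to 0.19 without being called, and Srxn1 was called higher with 6OHA than with BEX (log2 difference 0.27, adjusted p = 0.0152).

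Nqo1, the quinone reductase gene often read as a marker of NRF2 activity (chromosome 8, 107388225 to 107403205, minus strand), was the lowest of the 10 in TPM in the untreated library. It had 402 counts (11.3 CPM) untreated, 281, 294 and 353 counts (8.29, 8.10 and 8.75 CPM) with BEX, and 333 counts (9.64 CPM) with 6OHA. As with Srxn1, the BEX libraries were lowest and 6OHA lay between. Nqo1 fell by 0.43 log2 units with BEX (SE 0.122, edgeR adjusted p = 0.0364). That call was kept in 8 of 14 alternative analyses and was not made by DESeq2 (adjusted p = 0.238) or without BEX replicate 1 (adjusted p = 0.0725). With 6OHA the log2 fold change was -0.23 ± 0.151 (adjusted p = 0.361).

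**Figure D2:**
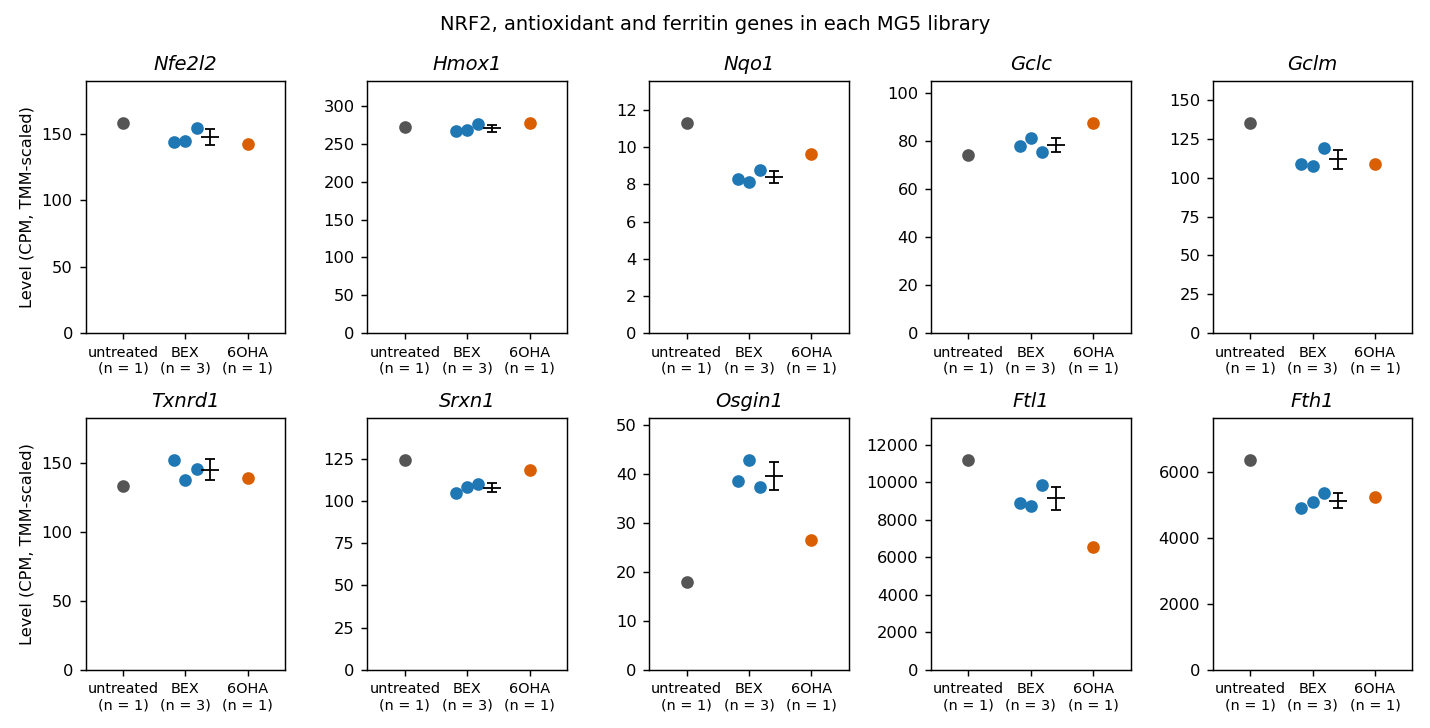
Level in CPM (y axis, from 0) of each gene in the untreated (grey), BEX (blue) and 6OHA (orange) libraries, with 1 point per library and, beside the BEX points, their mean and SD (n = 3). Osgin1 is lowest in the untreated library, between in 6OHA and highest in BEX, while Ftl1 runs from 11209 CPM untreated to 6573 CPM with 6OHA.

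Osgin1, an oxidative stress-induced growth inhibitor gene (chromosome 8, 119425882 to 119446257, plus strand), differed most between libraries. It had 637 counts (17.9 CPM) untreated, 1308, 1557 and 1508 counts (38.6, 42.9 and 37.4 CPM) with BEX, and 918 counts (26.6 CPM) with 6OHA. The 3 kinds of library did not overlap, and 6OHA stood between untreated and BEX. Osgin1 rose by 1.14 log2 units with BEX (SE 0.106, 95% interval 0.92 to 1.37, edgeR adjusted p = 6.41e-06) and was called in all 14 alternative analyses of that comparison. With 6OHA it rose by 0.57 (SE 0.129, 95% interval 0.29 to 0.85, adjusted p = 0.0103), a 1.49-fold change. Tested directly, Osgin1 was lower with 6OHA than with BEX by a log2 difference of -0.57 (SE 0.095, 95% interval -0.78 to -0.37, adjusted p = 0.00364). The call with 6OHA was lost without the low-count filter (adjusted p = 0.0623) and with limma on log2(TPM + 1) (0.0526), and that between the agonists in the same analyses (0.0559 and 0.0784) and with limma on log2(TPM + 0.1) (0.0709). With offsets for GC content and length, the log2 fold change of Osgin1 with 6OHA was 0.85 (1.80-fold). The difference between the agonists was then -0.39. The window of Osgin1, shown above with TGACTCA in capitals, lies inside the annotated gene at a transcript start downstream of the most upstream one. The long noncoding RNA gene Gm32006 shares 3681 bases with Osgin1 and had 3.46 CPM untreated, 6.99, 7.44 and 7.31 CPM with BEX, and 4.72 CPM with 6OHA. The groups came in the same order as for Osgin1, but Gm32006 was not called with 6OHA against untreated cells (log2 fold change 0.45 ± 0.231, SE). It was called lower with 6OHA than with BEX (-0.62 ± 0.168), and that call was kept in 8 of 13 alternative analyses. Gm32006 was called higher with BEX (log2 fold change 1.07 ± 0.187, SE, edgeR adjusted p = 0.00109). The use of strand in counting was not given in the sources used here, so reads from the shared bases cannot be told apart.

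Of 11654 genes averaging 20 counts or more, those with the pattern most like that of Osgin1 over the 5 libraries were Irak2, Fut4 and Syt17. Likeness was the root mean square difference of log2 CPM after centring each gene, and it was 0.0729, 0.0737 and 0.0811 for these. Irak2, a kinase of interleukin-1 and Toll-like receptor signalling, had 68.4 CPM untreated, 156, 162 and 158 CPM with BEX, and 114 CPM with 6OHA. Fut4, a fucosyltransferase gene, had 1.52 CPM untreated, 3.66, 3.72 and 3.59 CPM with BEX, and 2.32 CPM with 6OHA. Syt17, of the synaptotagmin family, had 6.07 CPM untreated, 12.9, 12.5 and 11.5 CPM with BEX, and 8.54 CPM with 6OHA. With 5 libraries in 3 groups, this likeness mostly describes the order of the groups.

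The ferritin light chain gene Ftl1 (chromosome 7, 45457944 to 45459886, minus strand) and the heavy chain gene Fth1 (chromosome 19, 9980600 to 9985111, plus strand) were by far the most abundant of the 10. In TPM, Ftl1 ranked 1 and Fth1 ranked 4 among all genes of the untreated library. Both mRNAs hold an iron-responsive element, shown here because this is the stretch through which iron sets ferritin translation. The 30 bases around the loop came from GENCODE M21 transcripts (GRCm38), with the loop in capitals, at chr7:45459778-45459807 (minus strand) for Ftl1 and chr19:9982732-9982761 (plus strand) for Fth1.
Ftl1: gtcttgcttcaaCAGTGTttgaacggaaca
Fth1: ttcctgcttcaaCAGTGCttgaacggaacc
RNA-seq does not measure that translational step, and the values below are RNA levels.

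Ftl1 stood at 11209 CPM untreated, 8893, 8716 and 9857 CPM with BEX, and 6573 CPM with 6OHA. The 3 kinds of library did not overlap: untreated was highest, BEX between and 6OHA lowest. Ftl1 fell by 0.29 log2 units with BEX (SE 0.051, edgeR adjusted p = 0.00155); in percent, it fell by 18.3%. Its level fell by 0.77 with 6OHA (SE 0.062, 95% interval -0.91 to -0.64, adjusted p = 6.54e-06); in percent, it fell by 41.4%. Tested directly, Ftl1 was lower with 6OHA than with BEX by a log2 difference of -0.48 (SE 0.051, 95% interval -0.59 to -0.37, adjusted p = 0.000219). The change with 6OHA was called in all 13 alternative analyses, but its size depended on the analysis. With offsets for GC content and length, the log2 fold change with 6OHA was -0.57 and the difference between the agonists -0.33. Both values lay outside the 95% intervals given above. The change with BEX was not called by DESeq2 or without the low-count filter. Limma on log2(TPM + 1) called neither the BEX change nor the difference between agonists.

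Fth1 stood at 6359 CPM untreated, 4912, 5089 and 5365 CPM with BEX, and 5243 CPM with 6OHA. All treated libraries were below the untreated one, and the 6OHA value fell inside the BEX range. Fth1 fell by 0.31 log2 units with BEX (SE 0.040, edgeR adjusted p = 0.000146) and by 0.28 with 6OHA (SE 0.049, adjusted p = 0.00254). Limma on log2(TPM + 1) called neither (adjusted p = 0.0893 and 0.180). Between the agonists the log2 difference was 0.03, with a 95% interval of -0.053 to 0.12 (adjusted p = 0.702). The heavy chain interval does not reach the light chain interval of -0.59 to -0.37, though the difference between the chains was not itself tested. Per length, the ratio of Ftl1 to Fth1 in TPM was 1.71 untreated, 1.76, 1.66 and 1.78 with BEX, and 1.22 with 6OHA. The 6OHA library was thus the one that stood apart, with less light chain RNA for each heavy chain RNA. Counts of Ftl1 and Fth1 together were 1.76% of all counts untreated, 1.38%, 1.38% and 1.52% with BEX, and 1.17% with 6OHA.

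Ftl1 has near-copies in the mouse genome, and reads from one can be assigned to another. Aligned to the 968 bases of the Ftl1 transcript, Ftl1-ps1 (chromosome 13, 74406397 to 74407325, plus strand) was identical at 99.6% of 910 aligned bases, with 4 mismatches and an identical run of 524 bases. Ftl2-ps (chromosome 4) was identical at 98.7% of 552 bases and Ftl1-ps2 (chromosome 10) at 97.8% of 549 bases. The first 60 coding bases of Ftl1 and the matching stretches of its copies are shown because short reads from them carry little to separate the rows; a capital marks the 1 base that differs from Ftl1. They lie at chr7:45459572-45459631 (minus strand), chr13:74406604-74406663 (plus strand), chr4:125504288-125504347 (plus strand) and chr10:130592646-130592705 (minus strand), in GRCm38.
Ftl1: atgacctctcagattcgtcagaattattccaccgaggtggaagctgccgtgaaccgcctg
Ftl1-ps1: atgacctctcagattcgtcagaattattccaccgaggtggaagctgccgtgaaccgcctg
Ftl2-ps: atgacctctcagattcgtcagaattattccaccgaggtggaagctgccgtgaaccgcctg
Ftl1-ps2: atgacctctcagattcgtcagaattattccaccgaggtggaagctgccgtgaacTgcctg
Over this stretch Ftl1, Ftl1-ps1 and Ftl2-ps were the same letter for letter.

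The row of Ftl1-ps1 held 988 CPM untreated, 610.1, 595 and 824 CPM with BEX, and 795 CPM with 6OHA. Its BEX libraries spread widely (SD 128 CPM around 676 CPM, n = 3), and the 6OHA value lay inside their range. As a share of counts on all Ftl rows, Ftl1-ps1 took 7.96% untreated, 6.30%, 6.26% and 7.58% with BEX, and 10.5% with 6OHA, where the share was highest. Ftl1-ps1 was called lower with BEX (log2 fold change -0.55 ± 0.127, SE, edgeR adjusted p = 0.0100), though not by DESeq2 (adjusted p = 0.320), and was not called with 6OHA (-0.31 ± 0.155, adjusted p = 0.210). Without BEX replicate 3, the highest of the BEX libraries, it was called in the 6OHA comparison (-0.31, adjusted p = 7.91e-05) and was higher with 6OHA than with BEX (0.40, adjusted p = 2.11e-06). Ftl2-ps held 217 CPM untreated, 175, 190.4 and 189.5 CPM with BEX, and 189.5 CPM with 6OHA, and was called lower with BEX (-0.23 ± 0.055, adjusted p = 0.0142). Ftl1-ps2 held 0.927 to 1.77 CPM and was not called. With every Ftl row added to Ftl1, the summed level was 12415 CPM untreated, 9679, 9502 and 10872 CPM with BEX, and 7558 CPM with 6OHA, so the order of the groups stayed and they did not overlap. The summed light chain was called lower with BEX (-0.31, edgeR adjusted p = 0.00168), with 6OHA (-0.72, adjusted p = 2.02e-05) and with 6OHA against BEX (-0.41, adjusted p = 0.0012). Rows of the Fthl17 family held 0 to 2 counts in each library and were not tested.

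**Figure D3:**
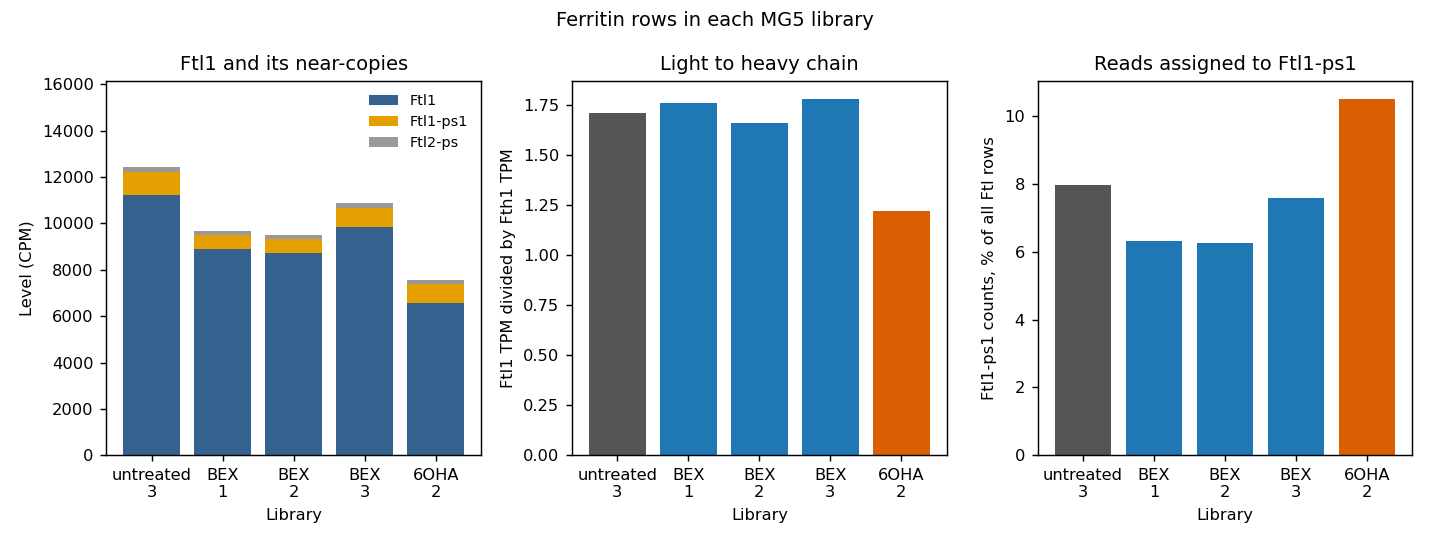
Left, CPM of Ftl1 and its near-copies stacked for each library; middle, the ratio of Ftl1 to Fth1 in TPM; right, counts on Ftl1-ps1 as a percentage of counts on all Ftl rows. The 6OHA library has the lowest light chain level and ratio (1.22) and the highest Ftl1-ps1 share (10.5%).

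On the scale of TPM, the untreated library ordered the 10 genes as Ftl1 (23952), Fth1 (13981), Hmox1 (360), Gclm (135), Nfe2l2 (133), Srxn1 (91.8), Txnrd1 (80.8), Gclc (44.8), Osgin1 (18.4) and Nqo1 (15.1). Over the 5 libraries, 3 pairs of neighbours in this order had overlapping TPM ranges: Gclm with Nfe2l2, Srxn1 with Txnrd1, and Gclc with Osgin1. The remaining neighbours kept apart in every library. The untreated library lay outside the range of the 3 BEX libraries for 9 of the 10 genes, all but Hmox1, beside 67.6% of all tested genes. The 6OHA library lay outside that range for 7 of the 10, beside 64.9%.

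Around these genes, 3 lists of related genes were read in the same fit. Among 17 tested regulators of NRF2, 5 were higher and 0 lower with BEX, 2 were higher and 1 lower with 6OHA, and 0 were higher and 2 lower with 6OHA than with BEX. That is 29.4%, 17.6% and 11.8% of the list called, beside 13.6%, 14.8% and 6.53% of all tested genes, so the share with 6OHA was near that of all genes. The list's median log2 fold changes were 0.08, 0.05 and -0.07. Keap1, which targets NRF2 for degradation, stood at 82.5 CPM untreated, 79.0, 75.2 and 81.2 CPM with BEX, and 65.9 CPM with 6OHA, the lowest. Keap1 fell by 0.32 log2 units with 6OHA (SE 0.078, edgeR adjusted p = 0.0152), a call lost with offsets for GC content and length (-0.13, adjusted p = 0.415). Bach1, the repressor at antioxidant elements, was not called (log2 fold changes 0.10 ± 0.056 with BEX and 0.08 ± 0.069 with 6OHA, SE). Bach2, a relative of Bach1, had 0 counts untreated, 45, 80 and 85 counts with BEX, and 83 counts with 6OHA. With the untreated level set to a ceiling of 3 counts, Bach2 was 22.3-fold higher with BEX and 28.5-fold higher with 6OHA (edgeR adjusted p = 0.000478 and 0.000702), although limma on log2(TPM + 1) called neither (0.288 and 0.210). These folds allow for counting error only. The TPM of Bach2 did not follow its counts, at 0.0994, 0.564 and 0.532 in BEX 1, 2 and 3 and 0.590 with 6OHA. Read assignment at this gene was not tested, so the folds are not lower bounds. Nfe2l1, which encodes a relative of NRF2, rose by 0.25 log2 units with BEX, Sqstm1, whose product sequesters KEAP1, by 0.18, and the small MAF gene Mafg by 0.17. The Mafg call was lost without BEX replicate 1 (edgeR adjusted p = 0.0797). Gsk3b, a kinase gene whose product promotes NRF2 degradation, rose by 0.21 with BEX and by 0.24 with 6OHA (SE 0.050 and 0.061, adjusted p = 0.0131 and 0.0205), and neither call held with offsets for GC content and length (0.056 and 0.139). Park7, which encodes the redox-sensing protein DJ-1, stood at 78.1 CPM untreated, 82.0, 82.9 and 85.4 CPM with BEX, and 67.3 CPM with 6OHA, below all the others. Park7 and Keap1 were the 2 regulators called between the agonists, with log2 differences of -0.31 ± 0.060 and -0.25 ± 0.065 (SE, adjusted p = 0.00979 and 0.0373). The Keap1 difference was called in 7 of 14 alternative analyses, over which it ran from -0.28 to -0.09 log2 units. Without BEX replicate 1 it was not called (edgeR adjusted p = 0.0584). The Park7 difference was called in 12 of 14.

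Of 46 other tested NRF2 targets, 5 were higher and 4 lower with BEX, 3 higher and 2 lower with 6OHA, and 1 higher and 5 lower with 6OHA than with BEX (19.6%, 10.9% and 13.0% called, beside 13.6%, 14.8% and 6.53% of all tested genes). The share with 6OHA was thus below that of all genes, and the list's medians were -0.04, -0.10 and -0.02. Gsr, the glutathione reductase gene, had 86.1 CPM untreated, 118, 117 and 126 CPM with BEX, and 85.6 CPM with 6OHA. The BEX libraries stood above both others, and the log2 fold change was 0.49 ± 0.062 with BEX (SE, edgeR adjusted p = 0.000159) and -0.49 ± 0.062 between 6OHA and BEX (adjusted p = 0.000685). Prdx5, a peroxiredoxin gene, had 267.5 CPM untreated, 282, 284 and 296 CPM with BEX, and 203 CPM with 6OHA, and it fell by 0.40 with 6OHA (SE 0.059, adjusted p = 0.000743). Prdx1, another peroxiredoxin gene, fell by 0.27 with BEX (SE 0.044, adjusted p = 0.000996). Ugt1a6a, Cbr3 and Mgst3 were also called lower with BEX (log2 fold change -0.46 ± 0.10, -0.465 ± 0.11 and -0.27 ± 0.073, SE). They were named after their values were seen, and the calls were kept in 11, 10 and 9 of 14 alternative analyses. Idh1, cytosolic isocitrate dehydrogenase and a source of NADPH, went from 138 CPM untreated to 258 ± 6.5 CPM (SD, n = 3) with BEX and 271 CPM with 6OHA, log2 rises of 0.90 and 0.97. Gpx1, a glutathione peroxidase gene, rose by 0.31 with BEX (SE 0.055, edgeR adjusted p = 0.00200). The export pump genes Abcc3 and Abcc5 rose with both agonists, by 0.38 and 0.27 with BEX and by 0.41 and 0.37 with 6OHA. Cbr1, a carbonyl reductase gene, was called lower with 6OHA (-0.35 ± 0.106, SE, adjusted p = 0.0438), a call kept in 5 of 13 alternative analyses and lost without BEX replicate 1 (0.0548). Beside Gsr and Prdx5, the genes lower with 6OHA than with BEX were Prdx6, another peroxiredoxin gene (-0.22 ± 0.050, adjusted p = 0.0197), and Pgd and Taldo1 of the pentose phosphate pathway (-0.22 ± 0.039 and -0.21 ± 0.048, adjusted p = 0.00525 and 0.0235). Abcc1, a glutathione conjugate exporter gene, was the 1 higher (0.17 ± 0.044, adjusted p = 0.0323, lost without BEX replicate 1 at 0.0565). Slc7a11, the cystine importer gene, and Txn1, thioredoxin, were not called in any of the 3 comparisons, though Slc7a11 was lower with offsets for GC content and length (-0.17 with BEX and -0.22 with 6OHA, edgeR adjusted p = 0.0369 and 0.0303).

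Of 41 tested genes of iron and haem handling, 8 were higher and 2 lower with BEX, 10 higher and 5 lower with 6OHA, and 2 higher and 1 lower with 6OHA than with BEX (24.4%, 36.6% and 7.32% called, beside 13.6%, 14.8% and 6.53% of all tested genes). The share between the agonists was near that of all genes, and the list's medians were 0.04, -0.03 and -0.05. Slc40a1, which encodes the iron exporter ferroportin, stood at 26.6 CPM untreated, 63.0, 65.0 and 62.2 CPM with BEX, and 75.6 CPM with 6OHA. It rose by 1.25 log2 units with BEX (SE 0.075, edgeR adjusted p = 1.61e-07) and by 1.51 with 6OHA (SE 0.087, adjusted p = 2.9e-07). Tfrc, the transferrin receptor gene, rose from 135.5 CPM to 176, 175 and 174 CPM with BEX and to 185 CPM with 6OHA, log2 rises of 0.37 ± 0.048 and 0.45 ± 0.059 (SE). Slc40a1 and Tfrc were thus above their untreated level in every treated library, where both ferritin chains were below theirs. Slc25a37, another transporter gene of the list, was called higher with BEX and with 6OHA (log2 fold change 0.29 ± 0.067 and 0.29 ± 0.082, SE). It was named after its values were seen, and the calls were kept in 11 of 14 and 9 of 13 alternative analyses. Some transporter genes of the list were not called. Among them was the metal importer gene Slc39a8 (31.4 CPM untreated, 26.8 ± 1.24 CPM with BEX, SD, n = 3, and 27.8 CPM with 6OHA). The haem transporter gene Slc48a1 (286, 262 ± 3.90 and 260.1 CPM) and the divalent metal importer gene Slc11a2 (66.6, 66.0 ± 1.63 and 67.2 CPM) were not called either. Slc11a1, a metal transporter gene of phagosomes, rose by 0.35 with BEX and by 0.23 with 6OHA (SE 0.047 and 0.058, edgeR adjusted p = 0.000282 and 0.0182). Lrp1, whose product takes up haem bound to haemopexin, rose by 0.32 and 0.50 (SE 0.056 and 0.068, adjusted p = 0.00205 and 0.000465). Steap3, a ferrireductase gene, fell by 0.31 with BEX (SE 0.055, adjusted p = 0.00166) and by 0.22 with 6OHA (SE 0.067, adjusted p = 0.0425), the latter lost without BEX replicate 1 (0.0641). Between the agonists, Slc40a1 and the haem exporter gene Flvcr1 were higher with 6OHA (0.25 ± 0.061 and 0.23 ± 0.058, SE, adjusted p = 0.0275 and 0.0310). The Slc40a1 difference was lost without BEX replicate 1 (0.0567). Fbxl5, which targets an iron regulatory protein for degradation, rose by 0.50 with BEX (SE 0.075, adjusted p = 0.000669), and Pcbp1, an iron chaperone gene for ferritin, fell by 0.27 (SE 0.045, adjusted p = 0.00143). Neither change was confined to BEX. Fbxl5 stood at 77.25 CPM untreated, 109.1 ± 8.04 CPM with BEX (SD, n = 3) and 98.65 CPM with 6OHA. Pcbp1 was also called lower with 6OHA (-0.33 ± 0.056, SE), in 12 of 13 alternative analyses too, and was not called between the agonists (-0.06 ± 0.046). With 6OHA, Aco1, which encodes the other iron regulatory protein, rose by 0.35 (SE 0.065, adjusted p = 0.00373), and Blvrb, a biliverdin reductase gene, fell by 0.36 (SE 0.078, adjusted p = 0.00845, lost with offsets for GC content and length at adjusted p = 0.239).

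**Figure D4:**
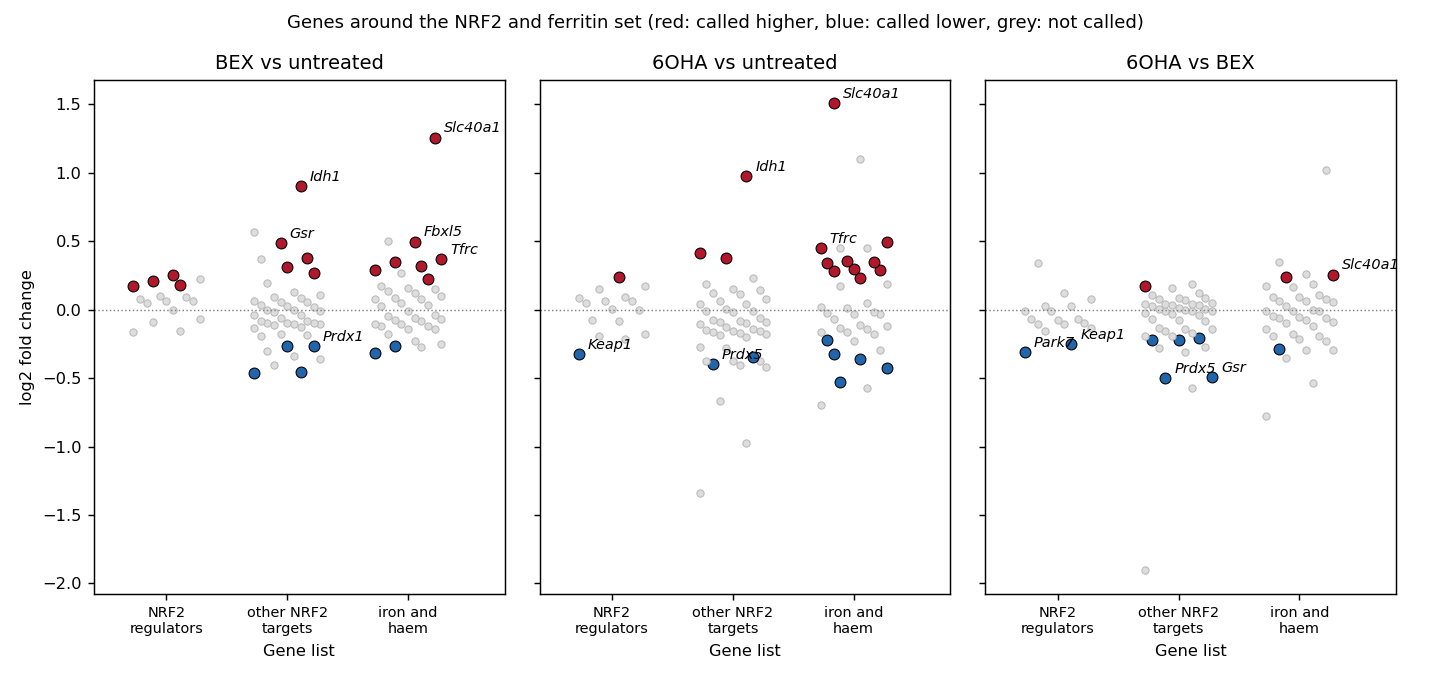
Log2 fold change (y axis) of each tested gene in the 3 lists (x axis) for the 3 comparisons, red and blue where called higher and lower and grey where not called. Slc40a1 and Idh1 stand highest among called genes in both comparisons with untreated cells; Bach2, Tfr2 and Hpx, which had a group at 0 counts, are left out where their fitted value is past 3.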

How the data were processed

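Poly-A RNA of MG5 cells was measured in 5 stranded libraries. Per the file headers, a single mm10 gene table deposited by the authors gives counts of reads beside FPKM and TPM in each library. Deposited counts were used for every main test, deposited TPM for levels per length and 2 alternative tests, and deposited FPKM for nothing. The submitters' processing notes list HISAT2 2.1.0, StringTie 2.1.3b, SAMtools 1.9, Bowtie2, Trimmomatic 0.38 and bcl2fastq 2.20.0, without roles; strand use in counting is not given in the sources used here. Of 45777 genes, 45679 matched RefSeq GRCm38.p6 by gene ID.

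All 5 libraries entered 1 edgeR 4.0.16 quasi-likelihood fit (R 4.3.3) with 3 groups, TMM factors and filterByExpr (minimum count 10, minimum total 15), which kept 15462 genes; tests were two-sided with Benjamini-Hochberg adjustment at 0.05. Residual degrees of freedom were 2, all from BEX libraries. The variance shared across genes added a median of 10.6 prior degrees of freedom, so it outweighed each gene's own spread. The common dispersion was 0.00287. The ceiling of a 0 count was 3 counts and covers counting error only. Alternatives were RLE factors, 2 other filters, DESeq2 1.42.0, limma 3.58.1 (voom, and trend on log2(TPM + 1) and log2(TPM + 0.1)), each BEX library left out, only the compared groups, GC and length offsets, ferritin rows summed with near-copies and, added after seeing the data, the older edgeR method. Folds on log2(TPM + 1) understate changes of low genes. BEX libraries differed beyond sampling noise and were kept apart. The scripts were tested on simulated counts.

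The 10 genes and the lists were chosen with earlier results of these data known. Some list genes outside the rule below were named after their values were seen. Named were all 10 genes, the highest ferritin near-copies, the 3 genes most like the member with the widest range, and called genes of each list (up to 6 per comparison, by adjusted p), with 10 list genes, Keap1 and Slc7a11 among them, named whatever their p; genes overlapping a member were added. Promoter windows were taken from RefSeq and transcripts from GENCODE M21; alignments used Biopython 1.88.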

Additional observations from a re-analysis of the deposited data

How the results depend on the processing

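Over the 10 genes and 3 comparisons, 369 of 410 alternative values kept their side of the threshold, 32 kept direction but lost the call, 9 gained one and 0 reversed a called direction. Of the 369, 365 also kept their direction, and 4, none of them called, changed sign: Hmox1 with BEX in both limma analyses on TPM (0.03 against -0.01), Gclm between the agonists without BEX replicate 3 (0.0038 against -0.04) and Srxn1 with 6OHA under GC and length offsets (0.19 against -0.07). Without the low-count filter, 1216, 1134 and 190 genes were called (BEX and then 6OHA against untreated cells, then 6OHA against BEX), where the reported analysis called 2101, 2285 and 1010; of the 10 genes 2, 2 and 1 were called against 6, 4 and 2, and of the 3 related lists 34 calls against 58. Limma on log2(TPM + 1) called 908, 785 and 85 genes, 1, 1 and 0 of the 10, and 26 in the lists; with log2(TPM + 0.1) these were 975, 869 and 144, then 1, 2 and 0, and 29. In 6OHA vs BEX, where both limma analyses called 0, 4 of the 10 had an unadjusted p under 0.05, and DESeq2 called 2. GC and length offsets gave 1408 genes in 6OHA vs untreated. The cause was not tested. Leaving out 1 BEX library gave 1841 to 2814, 2287 to 3226 and 867 to 1660 genes (1660 without BEX replicate 2), 4 to 7, 4 to 5 and 2 to 3 of the 10, and 52 to 84 in the lists. The share of called genes that were higher was 55.6%, 51.3% and 36.7%; with log2(TPM + 1) it was 67.7%, 62.2% and 24.7%, and with offsets 55.7% in 6OHA vs BEX. No paired analysis was possible because the untreated and 6OHA groups have 1 library each and share fewer than 2 replicate numbers with any group. A fit of 6OHA and untreated alone was not run, having no residual degrees of freedom. A lone untreated library and a lone 6OHA library limit every comparison.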

Other observations

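Further genes of iron and haem handling were called with 6OHA against untreated cells, and are named here after their values were seen. Ncoa4, whose product carries ferritin to lysosomes for breakdown, stood at 69.6 CPM untreated, 76.3 ± 0.777 CPM (SD, n = 3) with BEX and 85.6 CPM with 6OHA. It rose by 0.30 log2 units with 6OHA (SE 0.071, edgeR adjusted p = 0.0140), and its value with BEX was 0.13 ± 0.059 (SE, adjusted p = 0.166). Ireb2, which encodes an iron regulatory protein, stood at 104 CPM untreated, 117 ± 0.702 CPM with BEX and 127 CPM with 6OHA. It rose by 0.28 with 6OHA (SE 0.064, adjusted p = 0.0113), with 0.17 ± 0.052 for BEX (adjusted p = 0.0504).

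Hmox2, the constitutive haem oxygenase gene, stood at 67.0 CPM untreated, 70.7 ± 5.31 CPM with BEX and 84.7 CPM with 6OHA, and rose by 0.34 with 6OHA (SE 0.093, edgeR adjusted p = 0.0288). Alad and Urod, which encode enzymes of haem synthesis, fell by 0.53 and 0.43 with 6OHA (SE 0.130 and 0.101, adjusted p = 0.0157 and 0.0129). Alad stood at 19.3 CPM untreated, 17.1 ± 0.887 CPM with BEX and 13.4 CPM with 6OHA. Urod stood at 35.8 CPM untreated, 30.1 ± 1.26 CPM with BEX and 26.6 CPM with 6OHA. None of these 5 genes was called between 6OHA and BEX (adjusted p = 0.0607 to 0.260), so no difference between the agonists was shown for them. Against untreated cells, the calls with 6OHA were kept in 11 of 13 alternative analyses for Ncoa4 and Ireb2, 10 for Hmox2, 9 for Urod and 8 for Alad.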
